A study of Mus musculus with 6 samples.

Results

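Microtubules are hollow filaments assembled from pairs of alpha- and beta-tubulin, and the genes described here encode those subunits and the proteins that fold, nucleate and sequester them. The set held 33 of the 53715 genes in the deposited table (21981 of them protein coding). Its members were the protein-coding rows whose symbol names an alpha-, beta-, gamma-, delta- or epsilon-tubulin (Tuba, Tubb, Tubg, Tubd and Tube followed by a digit), a gamma-tubulin complex protein (Tubgcp), a tubulin-folding cofactor (Tbca to Tbce) or a stathmin (Stmn followed by 1 digit). By role these were 7 alpha-tubulins, 8 beta-tubulins, 4 gamma-, delta- and epsilon-tubulins, 5 gamma-tubulin complex proteins, 5 cofactors and 4 stathmins. The set was drawn up after Stmn4 had been seen to rise in the comparison described here, so the change of Stmn4 is given as a description with no test.

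The libraries came from an immortalized mouse podocyte line of wild-type genotype, in 2 groups of 3 libraries. One group was transfected with scrambled siRNA and the other with siRNA targeting Tfeb. Podocytes are the epithelial cells that cover the capillaries of the kidney glomerulus, and TFEB is a transcription factor best known for activating lysosome and autophagy genes. The protocol given for the line in both groups was growth at 33 °C in RPMI-1640 (10% serum, interferon gamma), then differentiation for 10 to 14 days at 37 °C, with serum lowered to 5% and type I collagen added at 12 mg/ml. The labels name no siRNA sequence, dose or time after transfection, and the cells are 1 cultured line.

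Levels are in FPKM (fragments per kilobase of gene, adjusted for how deeply each library was sequenced), which can be compared between genes. Whole reads per gene were derived from the same values, and libraries held 18062898 to 20610888 of them. Tfeb, the targeted gene, was at 1.80, 2.05 and 2.27 FPKM in the scrambled siRNA libraries and at 0.639, 0.714 and 0.822 FPKM in the Tfeb siRNA libraries, with no overlap (log2 fold change -1.05, SE 0.13, limma adjusted p = 0.00148). Of the 15 podocyte markers, 7 were abundant enough to test, and their summed level was 327 to 354 FPKM with scrambled siRNA and 315 to 322 FPKM with Tfeb siRNA. The defining markers Nphs1 and Wt1 were both under 1 FPKM on average in each group (Nphs1 at 0.232 and 0.0651 FPKM, Wt1 at 0.504 and 0.373 FPKM, scrambled siRNA first). In bulk RNA, a change in the number of cells of a type and a change in RNA per cell cannot be told apart.

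Newly made tubulin is folded by prefoldin and the chaperonin CCT, and cofactors A to E then join alpha- and beta-tubulin into a dimer. Gamma-tubulin and the gamma-tubulin complex proteins form the ring from which microtubules grow. Stathmins bind free dimers and promote microtubule shrinkage. In podocytes, microtubules fill the cell body and major processes, while actin fills the foot processes. Cells also lower tubulin mRNA when free dimers rise: the factor TTC5 recognises the first residues of tubulin as they leave the ribosome, and the mRNA is then degraded. The start of the coding sequence is therefore shown for members with the highest levels or the clearest differences, with the codons that follow the start codon in capitals (first 12 coding bases, 5′ to 3′, GENCODE release M21, mm10).

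Tuba1a: atgCGTGAGTGC
Tuba8: atgAGGGAATGC
Tubb5: atgAGGGAAATC
Tubb3: atgAGGGAGATC
Tubb4b: atgAGGGAGATC
Tubb2a: atgCGCGAGATC
Tubg1: atgCCGAGAGAA

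Tuba1b and Tuba1c shared the 12 bases of Tuba1a. Tubb3 and Tubb4b also had identical bases here. Read as codons, the alpha-tubulin starts shown encode Met-Arg-Glu-Cys and the beta-tubulin starts shown encode Met-Arg-Glu-Ile. The base differences within each family therefore leave these first residues unchanged. The isotypes differ most at the other end of the protein, in the acidic tail that faces outwards from the microtubule. The last 60 coding bases are printed for the beta-tubulins the results turn on, with the stop codon in capitals.

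Tubb5: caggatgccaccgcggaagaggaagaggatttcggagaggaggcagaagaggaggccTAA
Tubb3: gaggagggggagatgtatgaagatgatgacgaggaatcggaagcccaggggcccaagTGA
Tubb4b: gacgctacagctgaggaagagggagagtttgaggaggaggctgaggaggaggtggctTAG
Tubb2a: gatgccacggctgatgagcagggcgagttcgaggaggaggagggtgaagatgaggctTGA

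They lie at chr17:35834982-35835041 (Tubb5, minus strand), chr8:123421623-123421682 (Tubb3, plus strand), chr2:25222308-25222367 (Tubb4b, minus strand) and chr13:34074468-34074527 (Tubb2a, minus strand), each in 1 coding exon. In global alignment the whole coding sequence of Tubb3 was 81.4% identical to that of Tubb5, but the last 60 bases only 53.1%. Tubb4b was 82.2% identical to Tubb5 over the coding sequence and 65.1% over the last 60 bases. The alpha-tubulins were closer: Tuba1b was 98.3% identical to Tuba1a over the coding sequence and Tuba1c 97.1%.

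Of the 33 members, 24 passed the filter on low values (averaging at least 1 FPKM across all 6 libraries) and were tested together with all 12257 genes that passed it. A gene was called at an adjusted p below 0.05. Of the 23 tested members other than Stmn4, 7 were called higher with Tfeb siRNA and 0 lower by limma, which is 30.4%. Across all tested genes 33.3% were called, 16.9% higher and 16.4% lower, so the share of members called in either direction was near the background. The members called higher were Tubb3, Tubb5, Tubg1, Tubgcp3, Tbcb, Tbcd and Stmn1. Their log2 fold changes ran from 0.21 to 0.92, and those of the 16 members not called from -0.19 to 0.20. The median over the 23 was 0.09, against 0.02 over all tested genes. At an unadjusted p below 0.05, 9 were higher and 3 lower. The count of 0 lower depended on the test: Tubb4b and Tubb6 were called lower when replicate number entered the model as a block, and by limma with voom weights on derived reads, and Tuba8 and Tubg2, which were under the filter, when no filter was used.

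**Figure D1:**
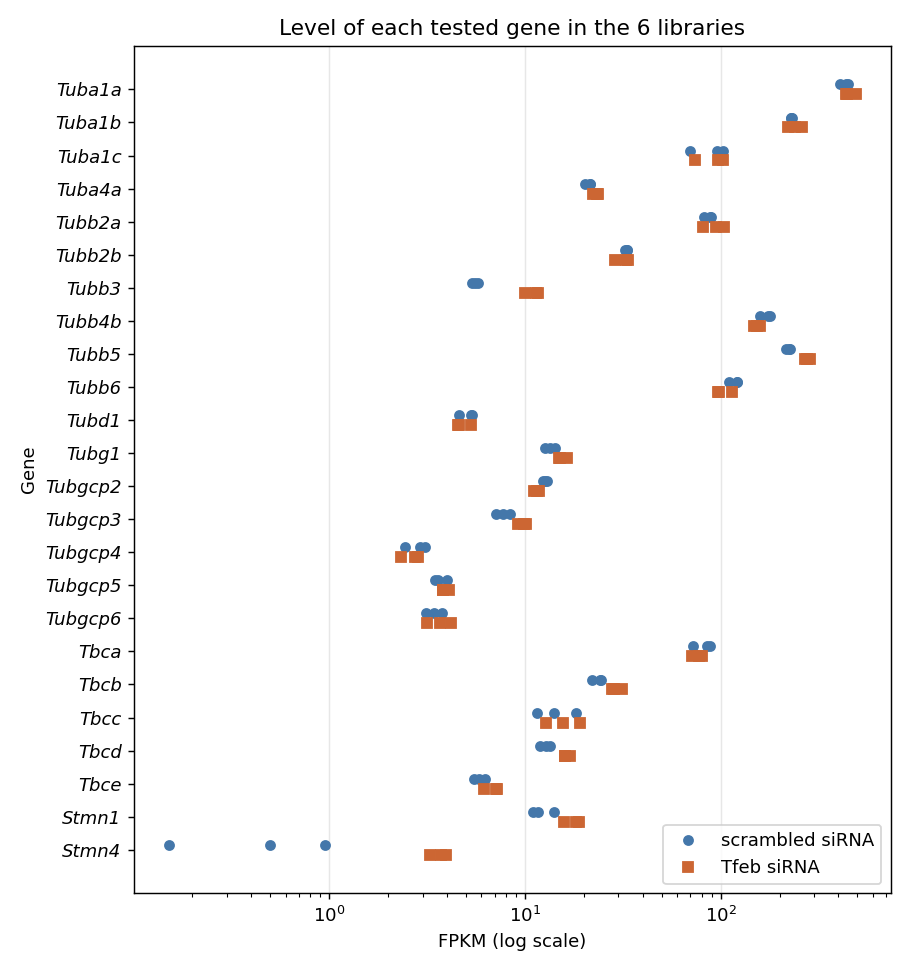
FPKM (log axis) of the 24 tested genes in each library, circles for the 3 scrambled siRNA libraries and squares for the 3 Tfeb siRNA libraries. Tuba1a is the most abundant at 408 to 492 FPKM, and Stmn4 is the only tested gene with scrambled siRNA libraries under 1 FPKM.

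**Figure D2:**
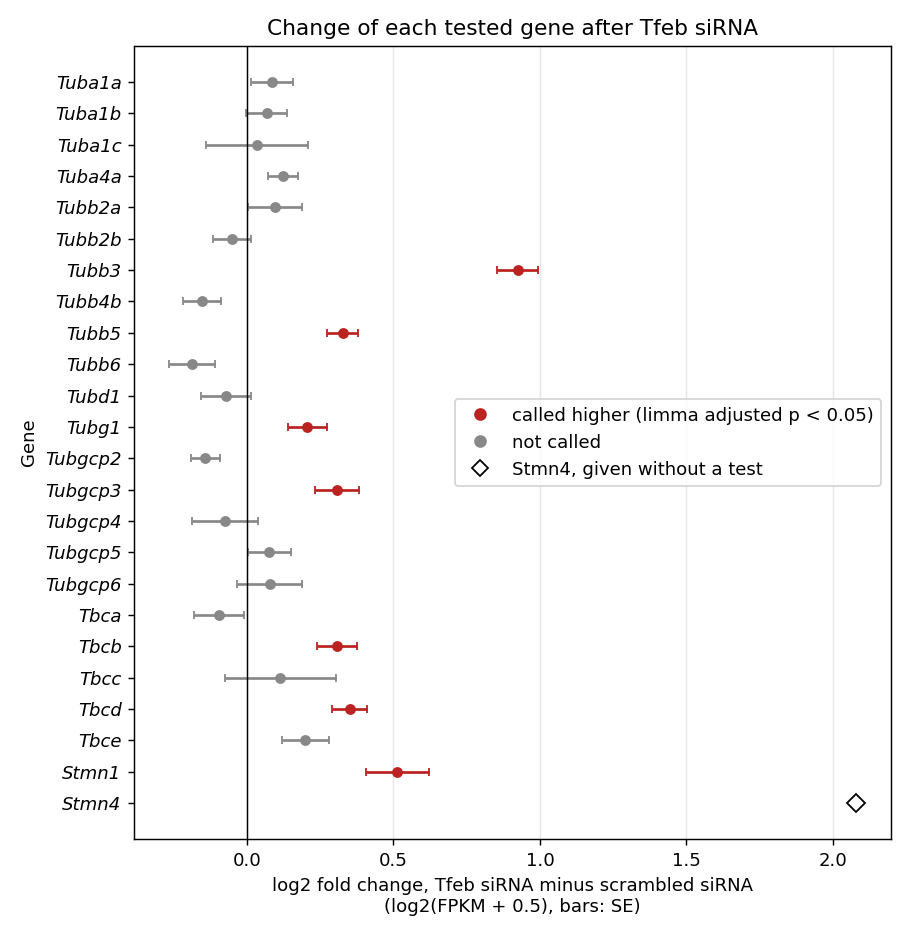
Log2 fold change of each tested gene, Tfeb siRNA minus scrambled siRNA, on log2(FPKM + 0.5), with bars of 1 SE over 6 libraries; red points were called higher at an adjusted p below 0.05. Tubb3 at 0.92 and Stmn1 at 0.51 stand to the right of the other called genes, and Stmn4 (diamond, 2.08) is drawn without an error because it was chosen for its change.

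The alpha-tubulins were the most abundant members, and none of the 4 tested was called by limma (1 at an unadjusted p below 0.05, and 0 called with voom weights). Tuba1a (chr15:98949837-98953703, minus strand), the isotype known for its part in neuronal migration, was at 436, 408 and 447 FPKM with scrambled siRNA and 442, 437 and 492 FPKM with Tfeb siRNA. The groups overlapped (means 431 ± 20.2 and 457 ± 30.5; here and below ± is the SD over n = 3 libraries), with a log2 fold change of 0.09 (SE 0.07, limma adjusted p = 0.394). Tuba1b, which is expressed in most tissues, was at 228, 231 and 228 FPKM and then 240, 261 and 221 FPKM (adjusted p = 0.492). Tuba1c was at 69.8, 96.2 and 103 FPKM and then 97.0, 103 and 74.4 FPKM (adjusted p = 0.899). The 3 genes lie beside each other on chromosome 15 and are nearly identical in sequence. Of the 50-base words in their exons, 75.5% (Tuba1a), 75.1% (Tuba1b) and 52.7% (Tuba1c) also occur in other genes, so how reads were split among them is uncertain.

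Tuba4a (chr1:75214228-75219865, minus strand), whose product is made without a C-terminal tyrosine, was at 20.2, 21.5 and 21.6 FPKM with scrambled siRNA and 23.2, 23.6 and 22.4 FPKM with Tfeb siRNA. The groups did not overlap, as in 48.7% of all tested genes, but the gene was not called (log2 fold change 0.12, SE 0.05, adjusted p = 0.107). Of its 50-base words, 34.6% lie in Stk16 on the opposite strand. Reads from the overlap cannot be told apart without strand.

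Tuba8 (chr6:121210696-121226854, plus strand), a divergent alpha-tubulin that is highest in muscle and testis, was low in every library. It was at 0.891, 1.05 and 0.803 FPKM (42, 49 and 38 reads) with scrambled siRNA and at 0.0493, 0.131 and 0.183 FPKM (2, 6 and 8 reads) with Tfeb siRNA. All 3 Tfeb siRNA libraries were below all 3 scrambled siRNA libraries, and the mean was 7.55-fold lower. An exact two-sided permutation test gave p = 0.1, the smallest that 3 against 3 libraries can give (0.2 after Benjamini-Hochberg adjustment over the 6 low members with reads). Without the filter, limma called it lower (log2 fold change -1.19, SE 0.14, adjusted p = 0.0055). It made up 0.119% ± 0.019 of the summed alpha-tubulin FPKM with scrambled siRNA and 0.0149% ± 0.00827 with Tfeb siRNA. The remaining alpha-tubulins, Tuba3a (15 and 13 reads in all) and Tuba3b (8 and 15 reads), were near 0.

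Among the beta-tubulins, Tubb5 and Tubb3 rose and the other 4 tested were not called. Tubb5 (chr17:35833921-35838306, minus strand), the main isotype of dividing cells, was the most abundant. It was at 215, 226 and 223 FPKM with scrambled siRNA and 278, 286 and 270 FPKM with Tfeb siRNA, a 1.25-fold rise with no overlap (log2 fold change 0.33, SE 0.05, adjusted p = 0.0041). It rests on 45975 and 53155 derived reads in the scrambled siRNA and Tfeb siRNA groups, and only 0.0892% of its words occur in another gene. Tubb3 (chr8:123411424-123422015, plus strand), the isotype used as a neuronal marker, was at 5.37, 5.54 and 5.79 FPKM with scrambled siRNA. With Tfeb siRNA it was at 10.1, 11.7 and 11.3 FPKM, 1.98-fold higher (log2 fold change 0.92, SE 0.07, adjusted p = 0.000353). Each Tfeb siRNA library held 337 to 441 Tubb3 reads against 209 to 226 in the scrambled siRNA libraries, and none of its words occur in another gene. By log2 fold change Tubb3 ranked 129 from the top of 12257 tested genes.

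Tubb4b (chr2:25222160-25224702, minus strand), a widely expressed isotype also found in cilia, was at 158, 180 and 174 FPKM and then 148, 153 and 159 FPKM. The groups overlapped narrowly and the gene was not called (log2 fold change -0.15, SE 0.06, adjusted p = 0.11), but with the replicate number as a block it was called lower (adjusted p = 0.0486). It was also called lower on TPM (adjusted p = 0.0352), with voom weights (0.0184) and without scrambled siRNA replicate 1 (0.0464). Of its words 41.3% occur elsewhere, mostly in the pseudogene Tubb4b-ps1, which was itself listed at 4.73 ± 0.960 and 5.12 ± 0.391 FPKM. Tubb6 (chr18:67390717-67402748, plus strand), an isotype linked to less stable microtubules, was at 110, 121 and 121 FPKM and then 96.6, 114 and 98.5 FPKM. It was not called (log2 fold change -0.19, SE 0.08, adjusted p = 0.109), though it was with the block (0.0408), with voom weights (0.0325) and without Tfeb siRNA replicate 2 (0.0344). The pair Tubb2a and Tubb2b, neighbours on chromosome 13 whose coding sequences are 96.5% identical, gave log2 fold changes of 0.10 (adjusted p = 0.465) and -0.05 (0.588). Tubb4a, a brain isotype, had 11, 14 and 21 reads with scrambled siRNA and 7, 5 and 10 with Tfeb siRNA (exact permutation p = 0.1, 0.2 adjusted). Tubb1, the platelet isotype, had 0 reads in every library, which allows up to 0.102 to 0.119 FPKM by library (3 reads; counting error only).

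Summed over all isotypes, alpha-tubulin transcripts were at 755, 758 and 802 FPKM with scrambled siRNA and 803, 825 and 810 FPKM with Tfeb siRNA. Beta-tubulin sums were 611, 653 and 639 FPKM and then 660, 675 and 675 FPKM. Both sums were higher in every Tfeb siRNA library, by 1.05-fold and 1.06-fold, with an exact permutation p of 0.1 each, the smallest possible (0.15 adjusted over 3 tests). The ratio of the alpha to the beta sum was 1.22 ± 0.05 with scrambled siRNA and 1.21 ± 0.0121 with Tfeb siRNA (exact permutation p = 1).

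The makeup of the beta sum differed more than its size. Tubb5 made up 34.6% to 35.2% of beta-tubulin FPKM in the scrambled siRNA libraries and 39.9% to 42.4% in the Tfeb siRNA libraries. Tubb4b went from 26.9% ± 0.834 to 22.9% ± 0.548, and Tubb6 from 18.5% ± 0.475 to 15.4% ± 1.31. Tubb3 went from 0.877% ± 0.0287 to 1.64% ± 0.106. Tubb2b went from 5.19% ± 0.141 to 4.75% ± 0.396, and Tubb4a from 0.0519% ± 0.0165 to 0.0258% ± 0.00901. For these 6 of the 7 beta-tubulins with reads the groups did not overlap (exact permutation p = 0.1 each, the smallest possible, 0.2 adjusted over 14 shares). In FPKM itself, 48.7% of all tested genes had groups without overlap, while those of Tubb4b, Tubb6 and Tubb2b overlapped. Of the Tubb2b words 36.9% occur in other genes, mostly in Tubb2a, so how reads were split between them is uncertain. The Tubb2a shares overlapped (13.6% ± 0.922 and 13.9% ± 1.70). Shares of 1 sum depend on each other, so a higher Tubb5 share lowers the rest. Among alpha-tubulins the groups overlapped for Tuba1a (55.8% ± 1.95 and 56.3% ± 4.01), Tuba1b (29.7% ± 1.07 and 29.6% ± 2.19) and Tuba1c (11.6% ± 2.05 and 11.3% ± 1.82).

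**Figure D3:**
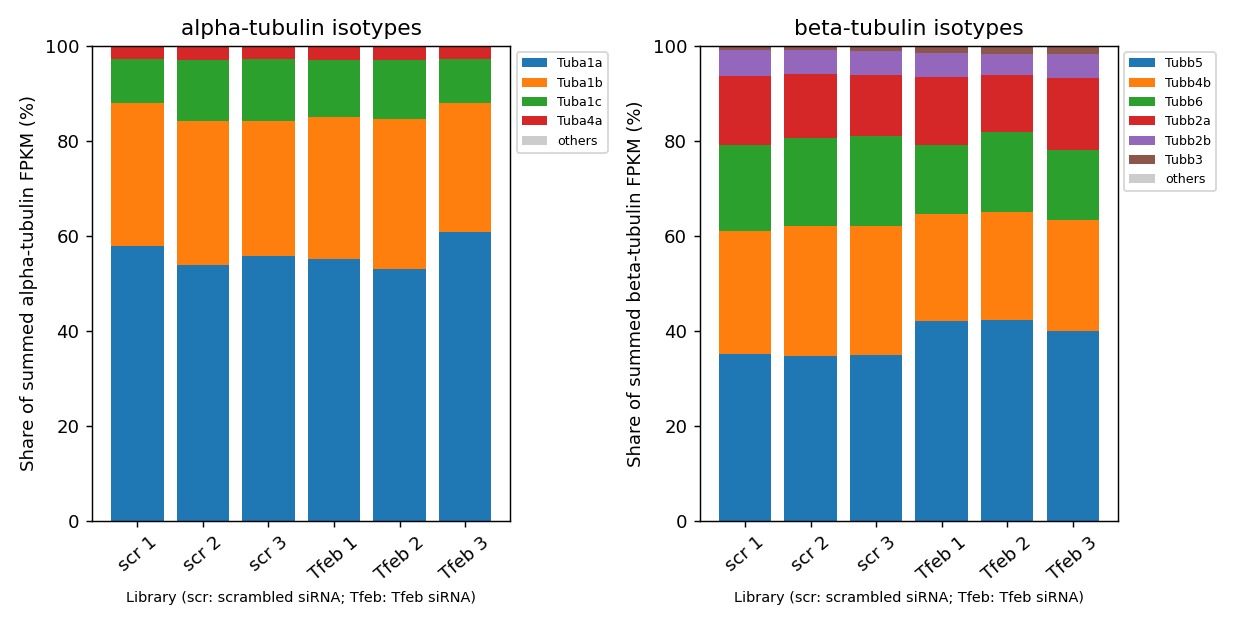
Share (%) of each isotype in the summed FPKM of alpha-tubulin genes (left) and beta-tubulin genes (right), 1 bar per library (scr, scrambled siRNA; Tfeb, Tfeb siRNA). The Tubb5 segment reaches 34.6% to 35.2% in the scrambled siRNA bars and 39.9% to 42.4% in the Tfeb siRNA bars, while the shares of Tuba1a, Tuba1b, Tuba1c and Tuba4a overlap between groups.

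Gamma-tubulin is encoded by a pair of close copies, and their values lay on opposite sides of 0. Tubg1 (chr11:101119938-101126419, plus strand), the widely expressed copy, was at 12.6, 14.2 and 13.4 FPKM with scrambled siRNA and 15.1, 16.5 and 14.96 FPKM with Tfeb siRNA (log2 fold change 0.21, SE 0.07, adjusted p = 0.0482). This call was at the threshold. It was lost with no filter (0.0898), on TPM (0.0917) and with voom weights (0.106). It was also lost when 1 library was left out, for scrambled siRNA replicate 1 (0.121) or 3 (0.117) and for Tfeb siRNA replicate 1 (0.0783), 2 (0.135) or 3 (0.0728). Tubg2 (chr11:101155907-101161787, plus strand), the copy best known from brain, was at 14, 15 and 20 reads with scrambled siRNA and 4, 7 and 1 reads with Tfeb siRNA. That is 3.79-fold lower in mean FPKM (0.447 ± 0.0863 and 0.118 ± 0.0842), with no overlap (exact permutation p = 0.1, the smallest possible, 0.2 adjusted). Without the filter limma called it lower (adjusted p = 0.0371). The copies share 11.0% of the words of Tubg1 and 14.3% of those of Tubg2, so some reads could have been assigned to either. Delta-tubulin (Tubd1, a centriole protein) was at 4.59, 5.35 and 5.29 FPKM and then 4.61, 4.53 and 5.28 FPKM (adjusted p = 0.563), and epsilon-tubulin (Tube1) at 0.606 and 0.616 FPKM on average.

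**Figure D4:**
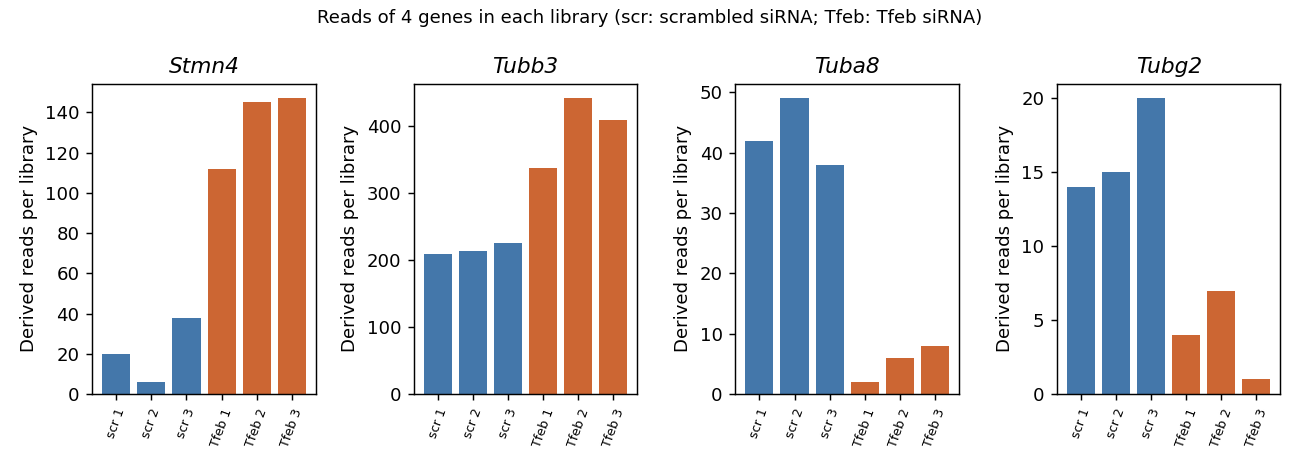
Derived reads per library of Stmn4, Tubb3, Tuba8 and Tubg2 (bars from 0; scr, scrambled siRNA; Tfeb, Tfeb siRNA). In all 4 genes the groups do not overlap: Stmn4 has 6 to 38 against 112 to 147 reads, Tubb3 209 to 226 against 337 to 441, Tuba8 38 to 49 against 2 to 8 and Tubg2 14 to 20 against 1 to 7.

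All 5 gamma-tubulin complex proteins were tested, with 1 called higher. Tubgcp3 (chr8:12614277-12672248, minus strand), a core subunit that pairs with Tubgcp2 and gamma-tubulin in the small complex, was at 8.44, 7.74 and 7.15 FPKM and then 9.91, 10.1 and 9.18 FPKM (log2 fold change 0.31, SE 0.07, adjusted p = 0.0188). Its call was lost on TPM (0.0534) and without scrambled siRNA replicate 2 (0.053) or 3 (0.0599) or Tfeb siRNA replicate 1 (0.0547) or 2 (0.0627). Tubgcp2, its partner, was at 13.0, 12.7 and 12.4 FPKM and then 11.8, 11.5 and 11.2 FPKM. The groups did not overlap, but the gene was not called (log2 fold change -0.14, SE 0.05, adjusted p = 0.0668). Tubgcp4, Tubgcp5 and Tubgcp6, the subunits of the larger ring, lay between 2.64 and 3.91 FPKM on average, and their adjusted p-values were 0.642, 0.468 and 0.625.

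Of the 5 folding cofactors, Tbcb and Tbcd rose. Cofactor B binds alpha-tubulin released from the chaperonin. Tbcb (chr7:30224131-30232272, minus strand) was at 22.1, 24.3 and 24.5 FPKM with scrambled siRNA and 28.6, 27.9 and 31.5 FPKM with Tfeb siRNA, 1.24-fold higher (log2 fold change 0.31, SE 0.07, adjusted p = 0.0136). Of its words 19.2% lie in Polr2i on the opposite strand, which was at 5.22 ± 0.846 and 4.50 ± 0.554 FPKM. Cofactor D binds beta-tubulin. Tbcd (chr11:121451949-121617164, plus strand) was at 12.9, 12.0 and 13.4 FPKM and then 16.0, 17.1 and 16.1 FPKM, 1.28-fold higher (log2 fold change 0.35, SE 0.06, adjusted p = 0.00535). Neither gene's groups overlapped.

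Cofactor E is the alpha-tubulin partner that joins cofactor D in the final complex. Tbce was at 6.27, 5.49 and 5.85 FPKM and then 7.19, 6.17 and 7.09 FPKM, with overlapping groups (log2 fold change 0.20, SE 0.08, adjusted p = 0.099). With the replicate number as a block it was called higher (0.0362). Cofactor C, which triggers release of the dimer, varied within groups: Tbcc was at 11.6, 14.2 and 18.2 FPKM and then 12.7, 15.6 and 19.2 FPKM (adjusted p = 0.684). Tbca, which holds beta-tubulin, was the most abundant cofactor transcript (81.9 ± 8.5 and 76.4 ± 4.33 FPKM, adjusted p = 0.433).

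Only Stmn1 and Stmn4 of the 4 stathmins were detected. Stmn4 (chr14:66344296-66361680, plus strand), a stathmin-like protein found mainly in neurons, was at 0.501, 0.151 and 0.949 FPKM with scrambled siRNA and 3.26, 3.74 and 3.97 FPKM with Tfeb siRNA. In derived reads these were 20, 6 and 38 against 112, 145 and 147, so every Tfeb siRNA library was above every scrambled siRNA library. The mean was 6.85-fold higher (0.534 ± 0.400 and 3.66 ± 0.362 FPKM), with a log2 fold change of 2.08 on log2(FPKM + 0.5), which ranked 7 from the top of 12257. Stmn4 was chosen for this rise and passed the filter only through its Tfeb siRNA libraries, so no test is given. None of its words occur in another gene.

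Stmn1 (chr4:134468320-134473843, plus strand), the stathmin of dividing cells, was at 11.7, 14.2 and 11.0 FPKM with scrambled siRNA and 15.9, 18.9 and 18.3 FPKM with Tfeb siRNA. It was 1.44-fold higher with no overlap (log2 fold change 0.51, SE 0.11, adjusted p = 0.0108). Of its words 17.9% also occur in Gm11223, which was itself called higher (17.2 ± 1.23 and 23.5 ± 3.38 FPKM, adjusted p = 0.0209), so how reads were divided between them is uncertain. That call was lost without scrambled siRNA replicate 1 (0.0525) or 2 (0.0647) or Tfeb siRNA replicate 2 (0.0627). Stmn2 and Stmn3, the other neuronal stathmins, had 0 reads in all 6 libraries. This allows up to 0.0256 to 0.0299 FPKM of Stmn2 and 0.126 to 0.147 FPKM of Stmn3 by library. Stmn4 and Stmn1 were 51.0% identical over their coding sequences.

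Tubb3 and Stmn4 are also expressed in neurons, and Tubb5 and Stmn1 in dividing cells, so the markers of those cell types are given beside them. Of 14 neuronal markers, 2 were tested and 1 was called higher, Uchl1 (3.92 ± 0.421 to 8.84 ± 0.345 FPKM, adjusted p = 0.000353). The summed level of the 14 was 5.59 to 7.95 FPKM with scrambled siRNA and 11.7 to 12.4 FPKM with Tfeb siRNA. Most of that difference lay in Uchl1. Snap25 and Dcx were at 0 in all libraries, and Rbfox3, Syt1 and Elavl4 were each under 0.07 FPKM on average. Among the markers under the filter, Celf4 (0.414 ± 0.0572 to 0.203 ± 0.0305 FPKM) and Rbfox3 (25 to 3 reads in all) were lower without overlap. Syn1 (0.155 ± 0.0508 to 0.263 ± 0.0164 FPKM) was higher without overlap. Of 19 proliferation markers, all tested, 6 were called higher and 0 lower by limma (9 and 0 at an unadjusted p below 0.05, and 7 and 0 called with voom weights). Across all tested genes 33.3% were called, 16.9% higher and 16.4% lower. The median log2 fold change of the 19 markers was 0.27. Their summed level was 225 to 244 FPKM with scrambled siRNA and 245 to 291 FPKM with Tfeb siRNA. That count of 6 fell to 2 without scrambled siRNA replicate 1 and to 1 without scrambled siRNA replicate 3 or Tfeb siRNA replicate 1 or 2. It rose to 9 without Tfeb siRNA replicate 3 and to 10 with the replicate block. It was 2 with no filter. Their part in the changes of Tubb5 and Stmn1 was not tested.

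Of the 2 ciliated-cell markers tested, Foxj1 was called higher (1.43 ± 0.108 to 3.86 ± 1.04 FPKM, adjusted p = 0.00383). The other, Cfap43, was at 12.5 ± 0.733 and 10.9 ± 0.0865 FPKM, without overlap and not called (adjusted p = 0.0504), and with voom weights 1 of the 2 was called lower. The list's summed level was 15.4 to 16.3 and 15.2 to 16.7 FPKM. Of the 4 mesangial or fibroblast markers tested, Col1a1 was called higher (2.54 ± 0.382 to 7.31 ± 1.14 FPKM, adjusted p = 0.000793) and 0 lower by limma (0 at an unadjusted p below 0.05, and 1 called with voom weights). Acta2, the most abundant, was at 1514 ± 57.7 and 1412 ± 10.8 FPKM (adjusted p = 0.276), and Des, under the filter, at 1.42 ± 0.209 and 0.503 ± 0.0824 FPKM, both without overlap. The list's summed level was 1504 to 1614 and 1443 to 1467 FPKM. Of the 3 macrophage or leukocyte markers tested, Csf1r was called lower (4.25 ± 0.150 to 2.24 ± 0.133 FPKM, adjusted p = 0.000667). Not called were Cd68 (5.76 ± 0.938 and 4.56 ± 0.743 FPKM, adjusted p = 0.148) and Lyz2, whose mean was higher (0.742 ± 0.331 and 1.26 ± 0.362 FPKM, adjusted p = 0.164). The list's sums were 10.0 to 11.5 and 7.01 to 8.82 FPKM, with Cd3e at 0. No keratinocyte marker of 4 tested was called by limma, with or without voom weights (0 at an unadjusted p below 0.05), and no endothelial marker reached the filter.

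TFEB binds E-box sequences with the core CACGTG, so that core was searched on both strands in the 300 bases from 250 before to 50 after the transcript starts in RefSeq's promoter table (GRCm38.p6), which held 26 of the 33 members. It was present in 2 of the 26 (7.69%), Tubb5 and Tuba8, against 7.15% of 32851 promoters. They are printed because the data bear on both genes, in opposite directions: 250 bases before the start, on the gene's strand, with the core in capitals.

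Tubb5: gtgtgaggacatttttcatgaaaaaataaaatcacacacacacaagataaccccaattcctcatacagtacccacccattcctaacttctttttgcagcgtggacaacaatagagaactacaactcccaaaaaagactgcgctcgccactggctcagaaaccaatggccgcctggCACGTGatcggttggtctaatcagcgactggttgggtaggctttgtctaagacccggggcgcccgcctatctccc
Tuba8: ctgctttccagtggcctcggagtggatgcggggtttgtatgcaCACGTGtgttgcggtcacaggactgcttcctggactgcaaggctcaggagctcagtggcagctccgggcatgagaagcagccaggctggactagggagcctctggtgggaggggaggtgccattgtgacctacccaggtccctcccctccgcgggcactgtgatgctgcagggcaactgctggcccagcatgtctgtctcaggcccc

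These are chr17:35838302-35838551 (minus strand) and chr6:121210484-121210733 (plus strand), and the core begins 75 bases before the start of Tubb5 and 207 bases before that of Tuba8. A match to these letters is not evidence of binding. Promoters of Stmn4, Stmn1, Stmn2, Tubg1, Tubgcp2, Tubb2b and Tubb6 were not in the table used.

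The other genes that act on tubulin were described with 8 lists holding 138 genes, 113 of them tested. Of these 19 were called higher and 14 lower, 29.2% in all against 33.3% of all tested genes, with a median log2 fold change of 0.02. The counts were 10 and 8 without scrambled siRNA replicate 3. Among the chaperonin CCT and prefoldin genes, 4 of 17 were called higher and 1 lower by limma. With voom weights 2 were called higher and 3 lower, so the balance of directions depended on the test. Across all tested genes 16.9% were called higher and 16.4% lower. The largest change was in Pfdn1, a prefoldin subunit (35.0 ± 0.410 to 55.3 ± 3.41 FPKM, log2 fold change 0.65, adjusted p = 0.000543). Txndc9, which modulates the chaperonin, fell (12.3 ± 0.663 to 9.62 ± 0.112 FPKM, adjusted p = 0.00456), and its relative Pdcl3 rose (22.4 ± 0.789 to 26.6 ± 1.15 FPKM, adjusted p = 0.0144, but 0.056 without scrambled siRNA replicate 3).

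Tubulin-modifying enzymes gave 1 higher and 2 lower of 17 tested. Atat1, which acetylates alpha-tubulin, rose (2.05 ± 0.307 to 3.37 ± 0.168 FPKM, log2 fold change 0.61, adjusted p = 0.0059). Svbp, the partner of the enzymes that remove the C-terminal tyrosine, fell (14.2 ± 0.312 to 10.6 ± 0.200 FPKM, log2 fold change -0.40, adjusted p = 0.00134). Ttll5, a polyglutamylase, was called lower (2.62 ± 0.0789 to 1.96 ± 0.0802 FPKM, adjusted p = 0.0185) but not without scrambled siRNA replicate 1 (0.0529) or 2 (0.0612) or Tfeb siRNA replicate 3 (0.0557).

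Proteins that bind along the microtubule had 5 higher and 2 lower of 14 tested (5 and 3 with voom weights) and a median log2 fold change of 0.17. Across all tested genes 16.9% were called higher and 16.4% lower, with a median of 0.02. Of the 2 called lower, Map6 lost its call with no filter. It also lost it without scrambled siRNA replicate 2 or 3 or Tfeb siRNA replicate 1 or 2 (at most 0.127). Map1b, known from growing axons, rose 1.77-fold (12.4 ± 0.677 to 22.0 ± 1.31 FPKM, adjusted p = 0.000406), and Mtcl1 rose from 11.0 ± 0.377 to 14.9 ± 0.482 FPKM (adjusted p = 0.00147). Camsap1, which caps minus ends, fell from 16.6 ± 0.428 to 13.5 ± 0.568 FPKM (adjusted p = 0.00684). In the plus-end list 3 of 16 tested genes rose. Changing most were the CLIP-family member Clip3 (6.73 ± 0.457 to 9.89 ± 0.410 FPKM, adjusted p = 0.00166) and the dynactin subunit Dctn1 (21.8 ± 2.07 to 30.1 ± 1.25 FPKM, adjusted p = 0.00497). A place in this list does not show that a product tracks plus ends. Mapre3, an end-binding protein, fell (13.9 ± 1.15 to 10.5 ± 0.517 FPKM, adjusted p = 0.00837).

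Of 7 severing enzymes tested, Spast was called lower (8.37 ± 0.280 to 6.68 ± 0.5 FPKM, adjusted p = 0.0142, but 0.0542 without scrambled siRNA replicate 3). Of 18 genes tested from the list of gamma-tubulin recruitment and centrosome genes, 3 were called lower and 1 higher. The 1 called higher was Lgals3bp, and its call was lost without scrambled siRNA replicate 1 or 3 or Tfeb siRNA replicate 1 or 3 (at most 0.0849). The augmin subunit Haus7 went from 22.9 ± 1.92 to 17.9 ± 1.60 FPKM (adjusted p = 0.0206), and its call was lost without scrambled siRNA replicate 2 or 3 or Tfeb siRNA replicate 2 or 3 (at most 0.0593). In the tubulin mRNA autoregulation list 2 of 12 were called higher and 2 lower, all subunits of the CCR4-NOT complex that shortens poly(A) tails. With voom weights 1 was called higher and 2 lower. Of the 2 called higher, Cnot6 lost its call on TPM, with voom weights and with any single library left out (at most 0.125 with a library left out). Cnot2 rose (16.6 ± 0.667 to 20.5 ± 1.36 FPKM, adjusted p = 0.0129), and the deadenylase Cnot6l fell (6.02 ± 0.0653 to 4.63 ± 0.187 FPKM, adjusted p = 0.00481). Ttc5 and Scaper, which link the ribosome to that complex, had log2 fold changes of 0.17 (adjusted p = 0.112) and -0.19 (0.166).

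Stathmins lose their grip on tubulin when phosphorylated, and of 12 tested genes for stathmin kinases and phosphatases 3 were called higher and 2 lower. Prkacb, a catalytic subunit of protein kinase A, fell from 14.6 ± 0.312 to 11.0 ± 0.617 FPKM (log2 fold change -0.39, adjusted p = 0.00287). Pak1 was called lower (1.84 ± 0.183 to 1.12 ± 0.148 FPKM, adjusted p = 0.0169), but not without scrambled siRNA replicate 1 (0.0545) or 3 (0.0553). Of the 25 genes that the naming rule picked from the lists, 15 kept their call under every alternative run and 10 lost it when at least 1 single library was left out.

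**Figure D5:**
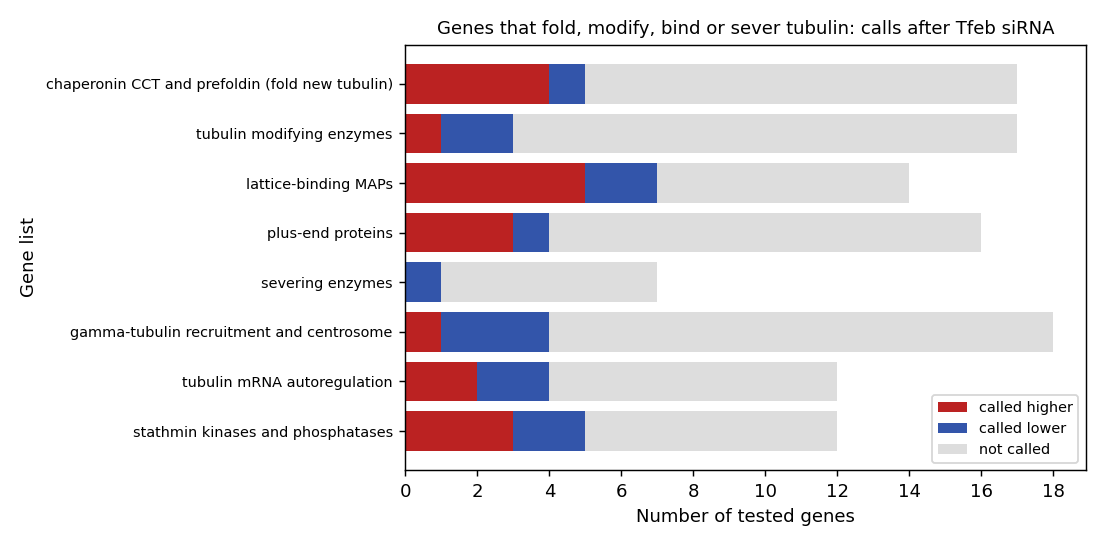
Number of tested genes called higher, called lower and not called (limma, adjusted p below 0.05) in the 8 lists of genes that act on tubulin or stathmins. Among proteins that bind along the microtubule 5 of 14 were called higher and 2 lower (3 lower with voom weights). In the list of gamma-tubulin recruitment and centrosome genes 1 of 18 was called higher and 3 lower (2 lower with voom weights).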

How the data were processed

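Gene expression was measured by RNA sequencing in 6 libraries, grouped by the siRNA named in the sample labels. The deposited table holds FPKM values per gene and library with gene positions and lengths, per the file headers. Per the submitters' processing notes, coordinates are those of mm10. Which aligner, counter, annotation release and strand setting were used is not given in the sources used here. Whole reads and depths were derived from FPKM and gene length, since in each library these products fell on multiples of a single unit (100% of values, tolerance 1e-06). The authors' depth scaling equalled median-ratio size factors, so the FPKM values were already scaled between libraries. Library totals came to 20143910, 20604794 and 20610888 for scrambled siRNA replicates 1 to 3 and 18062898, 20010130 and 19702898 for Tfeb siRNA replicates 1 to 3. Mitochondrial genes took 1.36% to 1.43% and 1.44% to 1.57% of reads. No 2 libraries agreed within sampling noise (chi-square per gene 4.70 to 8.93 within groups, 31.8 to 40.9 between). The labels do not say whether replicates are separate cultures. The p-values therefore cover only library-to-library spread, which may be technical.

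The contrast was fitted by limma (version 3.58.1, R 4.3.3) to log2(FPKM + 0.5) for the 12257 genes averaging at least 1 FPKM. Tests were two-sided, with a trended eBayes prior and Benjamini-Hochberg adjustment over all tested genes. The script was tested on simulated data. A fold change on this scale understates the change of low genes, and x-fold values are ratios of mean FPKM. Members under the filter and isotype sums were compared by exact permutation tests. Members and gene lists were chosen with earlier results of these data known. All members were accounted for, and from each list the rule named the 2 called genes with the largest rise and the 2 with the largest fall whose groups do not overlap. Of the 25 so picked, Haus2, Cnot9 and Aurkb are given only in counts, and Lgals3bp, Map6 and Cnot6 by the stability of their calls. Some listed genes are not reported here. Ttc5, Scaper, Gm11223 and the cell type markers given by value were named outside the rule after their values were seen.

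The fit had no replicate block. Residuals of same-numbered libraries correlated at 0.382, 0.129 and 0.166, all above 0.1, which met the rule set for pairing, so an alternative fit blocked on replicate number. The p-values given are unpaired unless the block is named. The pairing comes from the data, not the labels, and only number 1 stood clearly apart: scrambled siRNA replicate 3 and Tfeb siRNA replicate 2 correlated at 0.106. Coding sequences and shared 50-base words came from GENCODE release M21, which held all 33 members, and promoters from RefSeq. The planned comparison of protein sequences was replaced by coding sequences, since no protein table was used here.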

Additional observations from a re-analysis of the deposited data

How the results depend on the processing

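The 14 alternatives were pseudocounts of 0.1 and 1, no filter, a mean of 5 FPKM or more, TPM, median centring, the replicate block, voom weights on derived reads, and each library left out in turn. No called direction reversed. Tubb3, Tubb5, Tbcb, Tbcd and Stmn1 kept their call in all 14. Members called higher were 7 as reported, 5 on TPM, 6 with no filter and with voom weights, and 5 to 6 with a library left out. Members called lower were 0 as reported, 2 with no filter, 1 on TPM, 2 with voom weights, and 0 to 1 with a library left out. With the replicate block, which treats same-numbered libraries as pairs, members called higher were 8 and lower 2, and across all tested genes 2542 were called higher and 2386 lower; no member other than Tbce, Tubb4b and Tubb6 changed its call. Genes of the 8 lists called higher were 19 as reported, 12 on TPM and 10 to 14 with a library left out, and those called lower 14 as reported, 8 with no filter and 8 to 12 with a library left out. The lowest of these ranges came without scrambled siRNA replicate 3. Leaving out a library leaves 5 in the fit, and no filter raises the genes adjusted over to 29171; the cause of the other shifts was not tested. Over all tested genes calls were 1412 to 1703 higher and 1371 to 1720 lower with a library left out. The log2 fold change of Tfeb was -1.12 to -0.99, and the ratios of the alpha- and beta-tubulin sums were both 1.04 to 1.07. Depth limits Tuba8, Tubg2, Tubb4a and Stmn4, which rest on few reads per library.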
